A study of Rattus norvegicus with 32 samples.

Results

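The circadian clock genes Arntl, Arntl2, Clock, Npas2, Per1, Per2, Per3, Cry1, Cry2 and Nr1d1 were followed in C6 cells, a glioma cell line of the rat, after exposure to angiotensin II (Ang II). These 10 genes were taken as the transcript probes whose gene name in the scanner files equals a member, which gave 15 of the 30367 probes and 10 of the 26583 gene names on the array. Confluent cells in medium with 10% serum were left untreated (Control), were given Ang II at 100 nM, or were given Ang II after 30 min with 10 µM of Losartan (Ang II+Los), an antagonist of the AT1 receptor, or of PD123319 (Ang II+PD123319), an antagonist of the AT2 receptor. RNA was taken at 3 h or 6 h, with 4 replicates in each of the 8 groups, and each replicate was hybridized to a single-dye Agilent rat array. No group received an antagonist without Ang II. C6 is a single transformed line, and nothing in the sources used here says that the replicates came from separate cultures, so that p-values measure only the spread between these samples.

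The clock of mammalian cells is a feedback loop of transcription. CLOCK or its homologue NPAS2 pairs with BMAL1 (encoded by Arntl) or BMAL2 (encoded by Arntl2), and the pair binds E-box motifs and activates Per, Cry and Nr1d1. PER and CRY proteins then inhibit this pair, while REV-ERB alpha (encoded by Nr1d1) binds AGGTCA half-sites and represses Arntl. Astrocytes and cultured glial cells are known to hold such a clock, and its period and cryptochrome genes respond to signals from outside the cell.

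The genes were chosen by their family with the difference in Arntl2 between Ang II and Control at 6 h already known, where it ranked 38 of 16446 genes from the highest log2 fold change. Values of the members in that comparison are therefore a description and no test is drawn from them. The comparisons of Ang II+Los and Ang II+PD123319 made at 6 h share its Control or Ang II arrays, and the arrays of 3 h are separate from those of 6 h. At 3 h the comparisons likewise share Control or Ang II arrays. High values on the Ang II arrays alone would give both a rise over Control and a fall with an antagonist. Below, the Losartan comparison is Ang II+Los x Ang II and the PD123319 comparison is Ang II+PD123319 x Ang II. In bulk RNA, fewer cells that express a gene and less of its RNA per cell cannot be told apart. A gene is called past both limits at an unadjusted p under 0.05 (limma, with the slide as a block) and a fold change above 1.2 or below 0.8. Signals are log2 values of the background-subtracted intensity after cyclic loess among the 16 arrays of a time, and each time was normalized separately, so that levels are not compared between times or between genes.

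Promoters of Arntl, Arntl2, Per2 and Nr1d1, which held motifs of the loop, are shown first. They are not the set of members past both limits, since Arntl was so in no comparison of the study. Per1 was past both limits in the PD123319 comparison at 6 h, and its promoter held none of the motifs searched. Each run is the 250 bases before the start of the gene in RefSeq on GRCr8, on the strand of the gene, and capitals mark matches on either strand to an E-box (CACGTG), an E'-box (CACGTT), a D-box (TTATGTAA) or an AGGTCA half-site. The promoters are Arntl at chr1:176766078-176766327 (+), Arntl2 at chr4:181437341-181437590 (+), Per2 at chr9:99496994-99497243 (-), and Nr1d1 at the start at chr10:84229455-84229704 (-).
Arntl: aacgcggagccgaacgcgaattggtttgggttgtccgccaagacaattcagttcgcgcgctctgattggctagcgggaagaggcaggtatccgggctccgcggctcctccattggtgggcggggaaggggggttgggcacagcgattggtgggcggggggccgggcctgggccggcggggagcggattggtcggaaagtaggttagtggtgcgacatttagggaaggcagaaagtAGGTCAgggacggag
Arntl2: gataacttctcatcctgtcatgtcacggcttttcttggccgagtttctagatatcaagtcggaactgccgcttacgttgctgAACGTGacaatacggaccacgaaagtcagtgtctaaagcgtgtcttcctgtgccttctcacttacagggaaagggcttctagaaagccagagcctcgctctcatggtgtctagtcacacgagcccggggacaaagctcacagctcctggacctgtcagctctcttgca
Per2: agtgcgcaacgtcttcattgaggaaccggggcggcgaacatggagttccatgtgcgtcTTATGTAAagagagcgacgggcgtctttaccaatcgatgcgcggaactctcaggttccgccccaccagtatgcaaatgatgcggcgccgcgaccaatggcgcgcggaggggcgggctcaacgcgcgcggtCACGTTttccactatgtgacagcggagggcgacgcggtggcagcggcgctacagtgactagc
Nr1d1: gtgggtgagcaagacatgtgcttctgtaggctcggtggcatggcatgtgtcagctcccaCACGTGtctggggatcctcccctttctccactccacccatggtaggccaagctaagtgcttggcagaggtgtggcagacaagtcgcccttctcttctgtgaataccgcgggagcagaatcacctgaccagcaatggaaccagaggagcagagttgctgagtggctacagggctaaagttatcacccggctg
The RefSeq sequences used here held 11 such promoters for 9 of the 10 members, and Cry1 is named only. The AGGTCA half-site of Arntl began 15 bases before the start, the E'-box of Per2 62 bases and its D-box 192 bases before the start, and the E-box of this Nr1d1 promoter 191 bases before it. The Arntl2 promoter held an E'-box on the opposite strand, 168 bases before the start. Another E'-box lay in the other Nr1d1 promoter and another in that of Cry2, and the promoters of Clock, Npas2, Per1 and Per3 held none of the 4 motifs. Among 33469 rat promoters of the same length, 5.59% held an E-box, 4.07% an E'-box, 0.828% a D-box and 14.1% an AGGTCA half-site. A match is a description of these letters and not a site of binding.

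The arrays gave a measurement of every member at 6 h and of 7 members at 3 h. The share of spots well above background was 55.9% to 64.7% on the arrays of 3 h and 64.2% to 79.8% at 6 h, under a rule set in the scanner software that differed between the times. The replicate number is the slide, each slide holds 1 array of each group, and each group lay at the same position on every slide, so that treatment and position cannot be told apart. Within slides, single arrays lay up to 0.74 (SD of log2 values from the median of the slide) from the others at 3 h and up to 0.36 at 6 h. The farthest were Ang II+Los replicate 2 at 3 h and Control replicate 2 at 6 h. This Control array serves in every comparison with Control at 6 h. Next at 6 h came Ang II+PD123319 replicate 4, at 0.34, and Control replicates 1 and 4, at 0.32 and 0.31. Of the markers of C6 and astroglial cells, S100b, Vim, Nes, Glul and Cnp were well above background on all 16 arrays of each time, whereas Slc1a3 was so on none and Gfap on 0 arrays of 3 h and 2 of 6 h. Markers of other cells were also seen on all 16 arrays of each time, namely Aif1, Itgam and Cd68 of 4 microglial markers, Map2, Snap25 and Tubb3 of 5 neuronal ones, and Mag of 4 oligodendrocyte ones. The microglial marker Ptprc and the endothelial markers Pecam1 and Tek were well above background on no array, while the endothelial markers Cdh5 and Kdr were so on 12 and 6 arrays of 3 h and on 16 and 11 of 6 h.

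At 3 h, Arntl2, Clock and Per1 were not tested, because no group had them well above background on all 4 arrays. Arntl2 was well above background on 1, 2, 1 and 2 of the 4 arrays of Control, Ang II, Ang II+Los and Ang II+PD123319, and Per1 on 2 of 4 in each group. The better of the 2 Clock probes was well above background on 4 of the 16 arrays. The other 7 members had at least 1 probe that passed, and 10 of the 15 probes entered the values at 3 h and 14 of 15 at 6 h.

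Slides differed more than treatments did for most members. At 6 h the means of the 4 slides spread over 1.41 for Cry2, 1.38 for Clock and 1.31 for Arntl2 on the log2 scale, and over 0.16 for Cry1. The range of the slide means was larger than the range of the group means for 9 of the 10 members at 6 h, with Cry1 as the exception, and for 7 of 7 at 3 h. Comparisons were therefore made within slides.

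**Figure D1:**
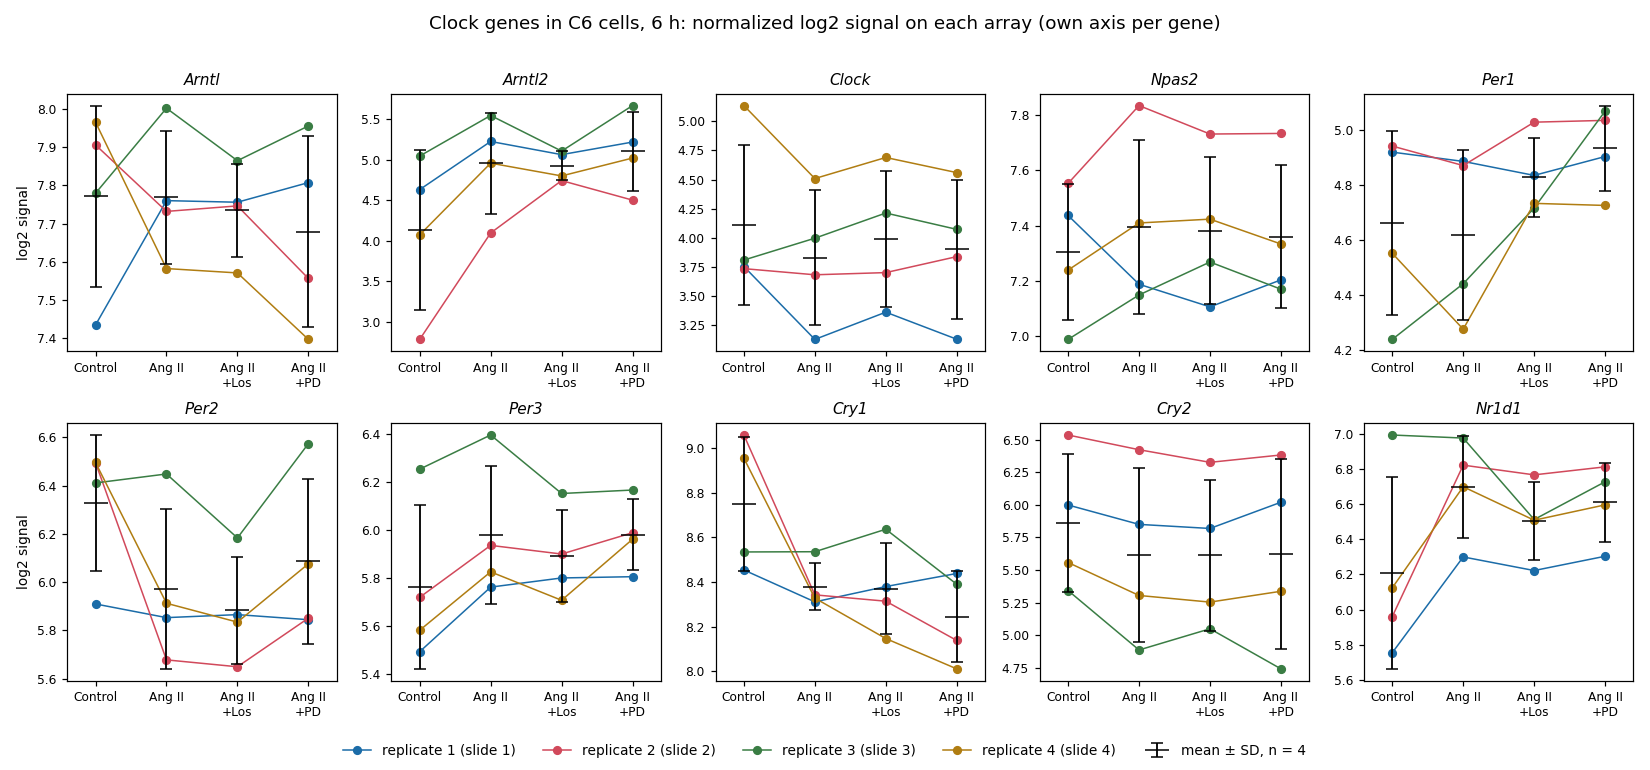
Normalized log2 signal of the 10 clock genes at 6 h on each of the 16 arrays, with a line for each slide and the mean ± SD of 4 replicates in black (Ang II+PD is Ang II+PD123319). Arntl2 was lowest in Control on every slide, and Cry1 and Per2 were highest in Control on slides 2 and 4, whereas slides differ widely in Cry2 and Clock.

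Ang II x Control addressed what Ang II did to the clock genes. At 6 h, 4 of the 10 members were past both limits, with Arntl2 and Nr1d1 higher and Cry1 and Per2 lower in Ang II, beside 11.5% of all genes tested. The count belongs to the comparison that the family was chosen with, and nothing is read from it. Per1 and Arntl lay within 0.05 of 0 on the log2 scale. Markers moved in the same comparison: Cnp at 0.43 ± 0.12 and Glul at 0.33 ± 0.14 of the 6 C6 and astroglial markers tested were past both limits and higher, and Tubb3 at -0.72 ± 0.27 of the 3 neuronal ones was past them and lower. The mean log2 signal of the 6 ranged over 8.03 to 8.48 in Control and 8.27 to 8.42 in Ang II, and that of the 3 over 6.03 to 6.88 and 5.76 to 6.28. Their part in the values of the clock genes was not tested.

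Arntl2 is the less studied homologue of Arntl, and its product pairs with CLOCK as BMAL1 does. Its probe maps to chr4:184415312-184415371 (rn4). The log2 signal was 4.63, 2.78, 5.05 and 4.07 in Control replicates 1 to 4 and 5.23, 4.10, 5.55 and 4.96 in Ang II. In Ang II+Los it was 5.06, 4.74, 5.11 and 4.80, and in Ang II+PD123319 5.22, 4.50, 5.67 and 5.02. Control was the lowest array of all 4 slides, but the groups overlapped across slides, since Control replicate 3 was above Ang II replicates 2 and 4. The log2 fold change in Ang II x Control was 0.83 ± 0.22 (SE, n = 4 slides), a fold of 1.77, with differences of 0.60, 1.32, 0.50 and 0.89 within the slides. It was 0.66 without replicate 2, and without the slide as a block its SE was 0.42 and it was not past both limits. Against Control it was 0.80 ± 0.22 in Ang II+Los and 0.97 ± 0.22 in Ang II+PD123319, which rest on the same Control arrays. Within the 3 slides of the first scan of 6 h the mean difference was 0.80, and on the 1 slide of the other scan 0.89.

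Arntl2 was dim, and its size turned on the background. With the normexp background and an offset of 50 the log2 fold change at 6 h was 0.22, under the limit on fold. Adding that offset to each signal shrinks the folds of dim probes by construction. At 3 h, without a filter on dim probes, the single probe gave a log2 fold change of 0.57 ± 0.48 in Ang II x Control (unadjusted p = 0.256, limma), and its log2 signal spanned 0.80 to 4.86 over the 16 arrays of that time.

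Nr1d1, the repressor of Arntl, was measured by a probe at chr10:87543165-87543519 (rn4). At 6 h its log2 signal was 5.75, 5.96, 6.99 and 6.12 in Control replicates 1 to 4 and 6.30, 6.82, 6.97 and 6.70 in Ang II. It was higher in Ang II on slides 1, 2 and 4 and level on slide 3, where Control was already high, and the groups overlapped. The log2 fold change was 0.49 ± 0.16, and without replicate 2 or 4, at 0.37 and 0.46, it was not past both limits. At 3 h the signal was 5.40, 5.79, 5.26 and 5.79 in Control and 5.55, 6.12, 5.63 and 5.99 in Ang II. It was higher in Ang II on all 4 slides of 3 h, by 0.26 ± 0.10 (unadjusted p = 0.0199, adjusted p = 0.35, limma), and its fold stayed just under the limit of 1.2. Without each replicate in turn it was 0.22 to 0.30, with an unadjusted p under 0.05 without replicate 1 alone. The slide mean differences were 0.23 in the first scan of 3 h and 0.28 in the other.

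The cryptochrome and period genes encode the inhibitors of the loop. Cry1, on a probe at chr7:20708985-20709044 (rn4), had a log2 signal of 8.45, 9.06, 8.54 and 8.96 in Control replicates 1 to 4 of 6 h and of 8.31, 8.34, 8.54 and 8.33 in Ang II. Per2, on a probe printed in 10 spots at chr9:90645610-90645669 (rn4), had 5.91, 6.50, 6.41 and 6.50 in Control and 5.85, 5.68, 6.45 and 5.91 in Ang II. Both were lower in Ang II on slides 2 and 4 and differed by at most 0.14 on slides 1 and 3, and the groups overlapped for both. The log2 fold changes were -0.37 ± 0.15 for Cry1 and -0.36 ± 0.13 for Per2, and without replicate 2 they were -0.26 and -0.20, without replicate 4 -0.29 and -0.28, none of them past both limits.

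Cry2 and Per3 differed by less, but the same way on every slide. Cry2 was lower in Ang II on all 4 slides of 6 h, by -0.24 ± 0.09, and Per3 was higher on all 4, by 0.22 ± 0.08, and neither passed the limit on fold. The 3 probes of Per3 gave 0.01, 0.29 and 0.35 in this comparison, so that the mean stands for unequal probes. Of the activators, Clock was at -0.28 ± 0.14, and at -0.43 without replicate 3 and -0.16 without replicate 1 or 4, where Control replicate 4, at 5.13, lay above the other Control arrays, at 3.74 to 3.81. Npas2 was at 0.09 ± 0.09 and Arntl at 0.00 ± 0.13, while Per1 was at -0.04 ± 0.12. The probes of Npas2 differed in sign, with 0.23 and -0.05.

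**Figure D2:**
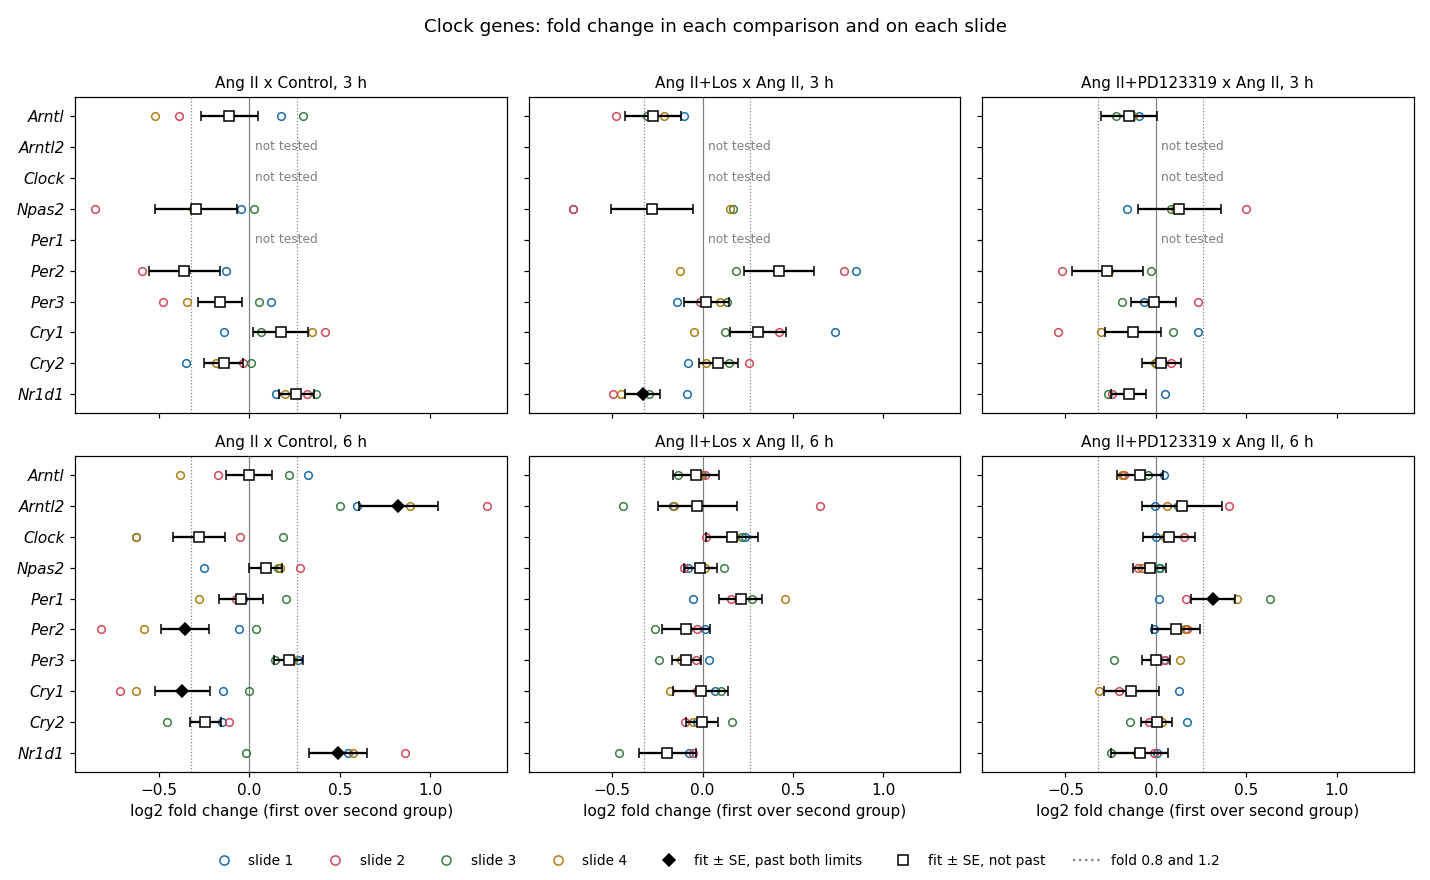
Log2 fold changes of the clock genes in the comparisons of the study at 3 h and 6 h, with circles for the differences within each slide, filled diamonds or open squares for the limma estimate ± SE, and dotted lines at folds of 0.8 and 1.2 (slides 1 to 4 of 3 h are other slides than those of 6 h). In Ang II x Control, 4 genes are past both limits at 6 h, Nr1d1 is past them with Losartan at 3 h, and Per1 with PD123319 at 6 h.

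In Ang II x Control at 3 h, 0 of the 7 members tested were past both limits by limma, beside 11.0% of all genes. Nr1d1 alone of them had an unadjusted p under 0.05, beside 1732 of 13630 genes. The paired test that the series record names put Per2 alone past both limits, beside 658 of 13629 genes. Per2 had a log2 signal of 5.45, 6.16, 6.41 and 5.83 in Control and 5.32, 5.57, 6.05 and 5.47 in Ang II. It was lower in Ang II on all 4 slides, by -0.36 ± 0.19 (unadjusted p = 0.0897, adjusted p = 0.439, limma). Npas2 was at -0.30 ± 0.23, Per3 at -0.16 ± 0.12, Cry2 at -0.14 ± 0.11, Arntl at -0.11 ± 0.16 and Cry1 at 0.17 ± 0.15. The median over the 7 members was -0.14, and that over all genes 0.00.

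The difference between the times in Ang II x Control, 6 h minus 3 h, was fitted over genes measured at both times and all 32 arrays. The times differ in slides, in scans and in the background settings of the scanner software, so that time and these cannot be told apart. The difference is built from the values at 6 h that the family was chosen with, so it is also a description and no test is drawn from it. Of 7 members, Cry1 and Per3 had an unadjusted p under 0.05, beside 7.17% of all genes, and nothing is read from that count. The log2 fold change of Cry1 differed by -0.54 ± 0.22, from 0.17 at 3 h to -0.37 at 6 h. That of Per3 differed by 0.38 ± 0.14, and its value rests on probe sets that differ between the times. With no filter, where the same 3 probes entered at both times, the difference of Per3 was 0.35 ± 0.15. Without replicate 2 the difference was -0.35 for Cry1 and 0.28 for Per3, and without replicate 4 it was -0.40 and 0.31. For Nr1d1 the difference was 0.23 ± 0.18, with 0.13 without replicate 2 and 0.44 without replicate 3, and for Per2 it was 0.00 ± 0.24, with -0.13 to 0.08 without each replicate in turn.

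**Figure D3:**
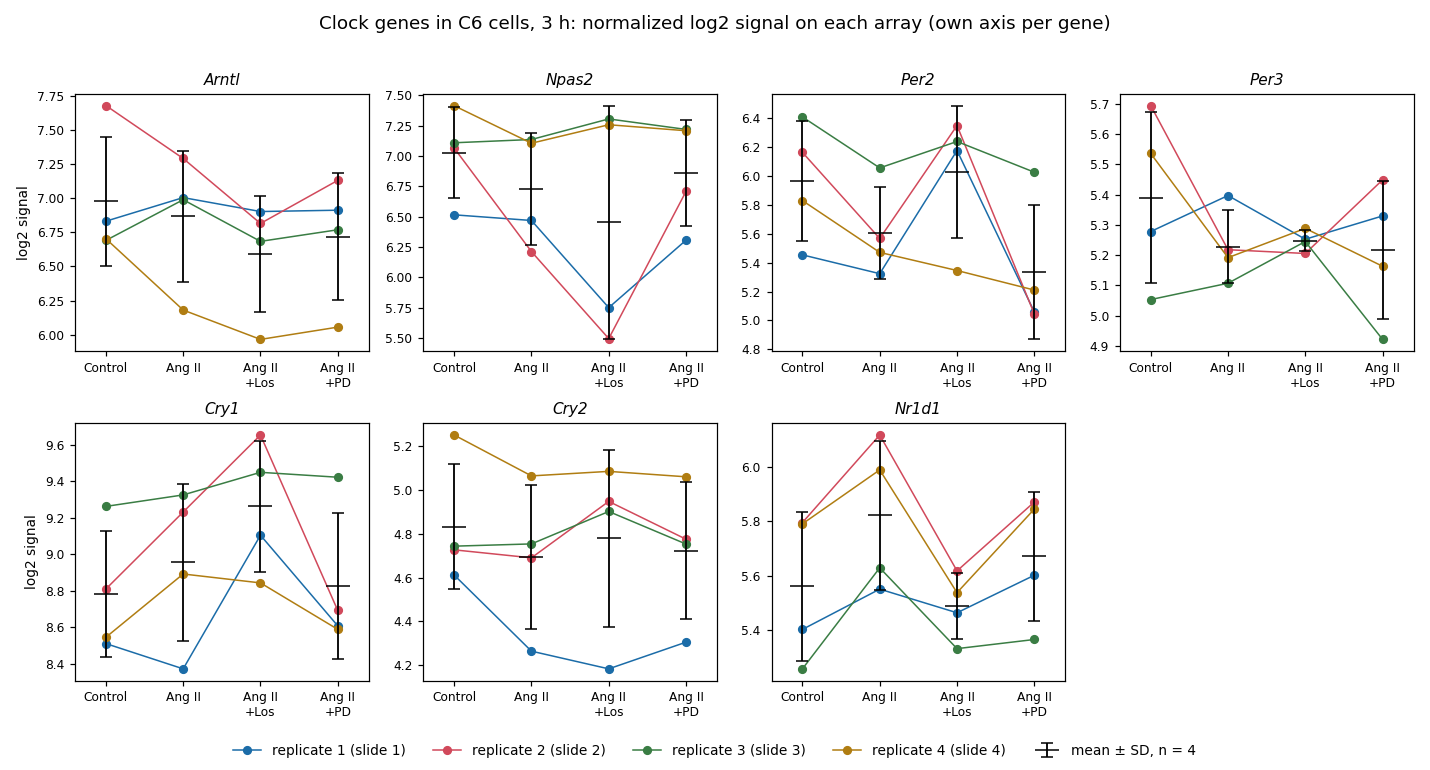
Normalized log2 signal of the 7 clock genes tested at 3 h on each of the 16 arrays, with a line for each slide and the mean ± SD of 4 replicates in black (Ang II+PD is Ang II+PD123319). Nr1d1 was lower in Ang II+Los than in Ang II on all 4 slides, and Npas2 in Ang II+Los was at 5.75 and 5.50 on slides 1 and 2 against 7.31 and 7.26 on slides 3 and 4.

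The Losartan comparison addressed the part of the AT1 receptor. At 3 h, 1 of the 7 members tested was past both limits, Nr1d1, beside 10.2% of all genes. The C6 marker Cnp was past them too, at -1.14 ± 0.44 with -3.05 on slide 2, and the mean signal of the 5 C6 and astroglial markers tested ranged over 7.84 to 8.91 in Ang II and 7.44 to 8.51 in Ang II+Los. Their part in the value of Nr1d1 was not tested. The log2 signal of Nr1d1 was 5.46, 5.62, 5.33 and 5.54 in Ang II+Los, lower than in Ang II on all 4 slides, and the groups overlapped. The log2 fold change was -0.33 ± 0.10 (unadjusted p = 0.00479, adjusted p = 0.426, limma), with differences of -0.09, -0.50, -0.30 and -0.45 within the slides. Without replicate 2 it was -0.28 and without replicate 4 -0.29, both under the limit on fold, and with quantile normalization -0.28. Against Control, Nr1d1 in Ang II+Los was at -0.07 ± 0.10. Ang II x Control at 3 h, where Nr1d1 was higher in Ang II, rests on the same Ang II arrays as the Losartan comparison.

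Per2 and Cry1 lay higher in Ang II+Los than in Ang II at 3 h, by 0.42 ± 0.19 (unadjusted p = 0.0505, limma) and 0.31 ± 0.15 (unadjusted p = 0.0677, limma). For both genes the difference sat in the first scan, whose slides 1 and 2 averaged 0.82 for Per2 and 0.58 for Cry1. The other scan gave 0.03 and 0.04. Arntl was at -0.27 ± 0.16, lower on all 4 slides, and Npas2 at -0.28 ± 0.23, with -0.72 on slides 1 and 2 and above 0 on slides 3 and 4. Of the probes left out of the test, that of Per1 gave 0.45 ± 0.17 (unadjusted p = 0.0229, limma).

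At 6 h, 0 of the 10 members were past both limits in the Losartan comparison, beside 0.900% of all genes. By limma on the 16 arrays 0 members had an unadjusted p under 0.05, beside 328 of 16446 genes. The log2 fold changes lay between -0.20 for Nr1d1 and 0.21 for Per1. Arntl2 was at -0.03 ± 0.22 and Cry1 at -0.01 ± 0.15, with 95% intervals of -0.51 to 0.45 and -0.34 to 0.32. The paired test of the series record also put 0 members past both limits, and 1 member had an unadjusted p under 0.05 by it and by limma on the 8 arrays of the comparison. No share over all genes is given for these 2 tests, and nothing is read from the 1 member.

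The PD123319 comparison addressed the part of the AT2 receptor. At 3 h, 0 of the 7 members were past both limits by limma or the paired test of the series record, beside 2.66% of all genes past both limits by limma. By limma on the 16 arrays 0 members had an unadjusted p under 0.05, beside 410 of 13630 genes. With the paired test and with limma on the 8 arrays of the comparison 1 had, and nothing is read from that count. The lowest log2 fold changes were -0.27 ± 0.19 in Per2, with a 95% interval of -0.69 to 0.15, and -0.15 in Arntl and Nr1d1, and the highest was 0.13 in Npas2. At 6 h, 1 of the 10 members was past both limits, Per1, beside 3.79% of all genes. The markers S100b, at 0.28 ± 0.10, and Aif1, at 0.39 ± 0.12, were past them in the same comparison. Of the 6 C6 and astroglial markers tested, 2 were above 0, with a median of -0.02. Of the 3 microglial ones 2 were, with a median of 0.19. The part of these markers in the value of Per1 was not tested. Arntl2 was at 0.15 ± 0.22, with a 95% interval of -0.34 to 0.63.

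Per1, a period gene that many signals induce early, was measured by a probe at chr10:55866200-55866259 (rn4). At 6 h its log2 signal was 4.92, 4.94, 4.24 and 4.55 in Control, 4.89, 4.87, 4.44 and 4.28 in Ang II, and 4.90, 5.04, 5.07 and 4.73 in Ang II+PD123319. The antagonist group was level with Ang II on slide 1 and higher on the others, by up to 0.63 on slide 3. The log2 fold change over Ang II was 0.32 ± 0.12 (unadjusted p = 0.0231, adjusted p = 0.72, limma), and 0.21 ± 0.12 in the Losartan comparison, which shares the Ang II arrays. Without replicate 3 it was 0.21 and without replicate 4 0.27, and with quantile normalization 0.26, none of them past both limits.

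The antagonist groups were also set against untreated cells, which the study did not compare. At 3 h, in Ang II+Los x Control, 3 of 7 members were past both limits, beside 20.0% of all genes. Cry1 was higher by 0.48 ± 0.15 (unadjusted p = 0.00842, adjusted p = 0.176, limma) and higher on all 4 slides, and stayed past both limits without each replicate in turn. Npas2 was lower by -0.57 ± 0.23 and Arntl by -0.38 ± 0.16, and without replicate 2 these were -0.24 and -0.22, not past both limits, as was Arntl without replicate 4, at -0.27, and Npas2 without replicate 1, at -0.51. The mean difference in Cry1 was 0.72 in the first scan of 3 h and 0.24 in the other, that in Npas2 -1.17 and 0.02, and that in Arntl -0.40 and -0.37. Of the 5 C6 and astroglial markers tested, Cnp was past both limits and lower in this comparison, at -1.05 ± 0.44 with -1.29 and -2.96 on slides 1 and 2, and its part in these values was not tested. In the cells with PD123319 at 3 h, 1 of 7 was past both limits, beside 6.07% of all genes. This was Per2, lower on all 4 slides by -0.63 ± 0.19 (unadjusted p = 0.00713, adjusted p = 0.496, limma), and it stayed past both limits without each replicate in turn and without the slide as a block, but not with the normexp background, where it was -0.27. The mean difference was -0.76 in the first scan and -0.50 in the other.

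At 6 h the same Control arrays served for all treatments. In Ang II+Los x Control, 3 of 10 members were past both limits, beside 11.4% of all genes, and in Ang II+PD123319 x Control 4 of 10, beside 13.5%. Arntl2 was higher and Cry1 lower in both, by -0.38 ± 0.15 and -0.51 ± 0.15 for Cry1. Per2 was lower in Ang II+Los, by -0.45 ± 0.13, and Nr1d1 and Per1 were higher in Ang II+PD123319, by 0.40 ± 0.16 and 0.27 ± 0.12. Single replicates and the processing moved these values. In Ang II+PD123319, of 13 alternatives, Per1 stayed past both limits in 3 and Nr1d1 in 5. Per1 was at 0.08 without replicate 3 and past both limits without replicate 1 alone, and Nr1d1 was at 0.25 without replicate 2 and 0.62 without replicate 3, and past both limits without replicate 3 alone. Arntl2 in Ang II+Los was at 0.41 without replicate 2. Cry1 in both groups and Per2 in Ang II+Los were not past both limits without replicate 2 or 4, with Cry1 at -0.26 and -0.24 in Ang II+Los and at -0.37 and -0.36 in Ang II+PD123319, and Per2 at -0.31 and -0.37. Cry1 in Ang II+PD123319 lay below every Control array, but narrowly, with its highest array at 8.44 and the lowest Control array at 8.45. How many of all genes lay apart in this way was not counted, so nothing is read from it. Markers were past both limits in these comparisons as well. Against Control, Ang II+Los had Cnp at 0.30 ± 0.12 and Glul at 0.37 ± 0.14 higher, and Tubb3 at -0.75 ± 0.27 and Map2 at -0.39 ± 0.14 lower. Only 2 of the 6 C6 and astroglial markers tested were above 0 there, with a median of -0.07 over the 6, and 0 of the 3 neuronal ones. Ang II+PD123319 had Cnp at 0.40 ± 0.12, Glul at 0.32 ± 0.14 and Aif1 at 0.30 ± 0.12 higher, and Aqp4 at -0.70 ± 0.16 and Tubb3 at -0.83 ± 0.27 lower. In this group 4 of the 6 C6 and astroglial markers were above 0, 1 of the 3 microglial and 1 of the 3 neuronal ones. Their part in the values of the clock genes was not tested. Of all genes, 1.36% and 1.38% had an adjusted p under 0.05 in these comparisons, and 0 members did by limma.

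The other genes of the clock were taken as 53 genes in 4 lists, of which 48 were on the array. In Ang II x Control, 3 of the 39 tested at 3 h were past both limits and higher and 2 lower, and at 6 h 6 of 41 were higher and 0 lower. Of all genes, 11.0% were past both limits at 3 h, 680 of 13630 higher and 815 lower. At 6 h 11.5% were, 1115 of 16446 higher and 769 lower. Their medians were 0.04 at both times, beside 0.00 at 3 h and -0.01 at 6 h over all genes.

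Among the secondary loops and output factors, Nr1d2 encodes REV-ERB beta. It was higher in Ang II on all 4 slides at 3 h, by 0.34 ± 0.16, and at 6 h, by 0.29 ± 0.20, and past both limits at 3 h alone. With Losartan at 3 h, on the same Ang II arrays, it was at -0.53 ± 0.15 (unadjusted p = 0.00516, adjusted p = 0.426, limma), past both limits, and lower on slides 1, 2 and 4. With PD123319 at 6 h it was past both limits at -0.44 ± 0.20 and lower on all 4 slides, as was Rora, which encodes an activator that competes for the same motif, at -0.47 ± 0.14. Bhlhe40 and Bhlhe41, repressors that bind E-boxes, were past both limits at 6 h in Ang II x Control, at 0.34 ± 0.11 and 0.27 ± 0.11, and higher on all 4 slides. With Losartan at 3 h Bhlhe40 was past both limits at -1.47 ± 0.67, from -2.44 and -3.76 on slides 1 and 2 and 0.17 on each of slides 3 and 4. Nfil3, a repressor that binds D-boxes, was past both limits at 3 h in Ang II x Control, at -0.76 ± 0.31, with -1.69 and -1.47 on slides 2 and 4 and 0.14 and -0.01 on slides 1 and 3. Dbp and Tef, activators that bind D-boxes, were past both limits in no comparison of the study, with Dbp between -0.18 and 0.20 and Tef between -0.16 and 0.18.

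Of the kinases, phosphatases and ubiquitin ligases that act on PER and CRY, Csnk2a1, a subunit of casein kinase 2, was past both limits at 3 h. It was at 0.33 ± 0.14 in Ang II x Control and, on the same Ang II arrays, at -0.45 ± 0.14 with Losartan. Fbxl15 was past them with Losartan at 3 h, at 0.44 ± 0.15. Of the cofactors, Hdac3, a deacetylase that works with REV-ERB proteins, was at 0.27 ± 0.07 and Timeless at 0.36 ± 0.16 at 6 h in Ang II x Control, and Ep300 at 0.31 ± 0.12 with Losartan at 3 h, all past both limits. Of the clock-controlled genes, Tfrc, the transferrin receptor, at 0.59 ± 0.13 and Klf10 at 0.33 ± 0.14 were past both limits at 6 h in Ang II x Control, and Wee1, a kinase that holds back mitosis, at 0.72 ± 0.27 and Klf9 at -0.32 ± 0.13 at 3 h. Wee1 was at 1.52 and 1.48 on slides 2 and 4 and at -0.29 and 0.16 on slides 1 and 3. With Losartan at 3 h, Id2 was past both limits at -1.03 ± 0.40, with -2.75 on slide 2, and Ccrn4l, the older name of Noct, at 0.52 ± 0.21. With Losartan at 6 h, beside 0.900% of all genes, 0 of 41 were past both limits by limma. Their adjusted p in the comparisons of the study lay at 0.0745 or above.

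**Figure D4:**
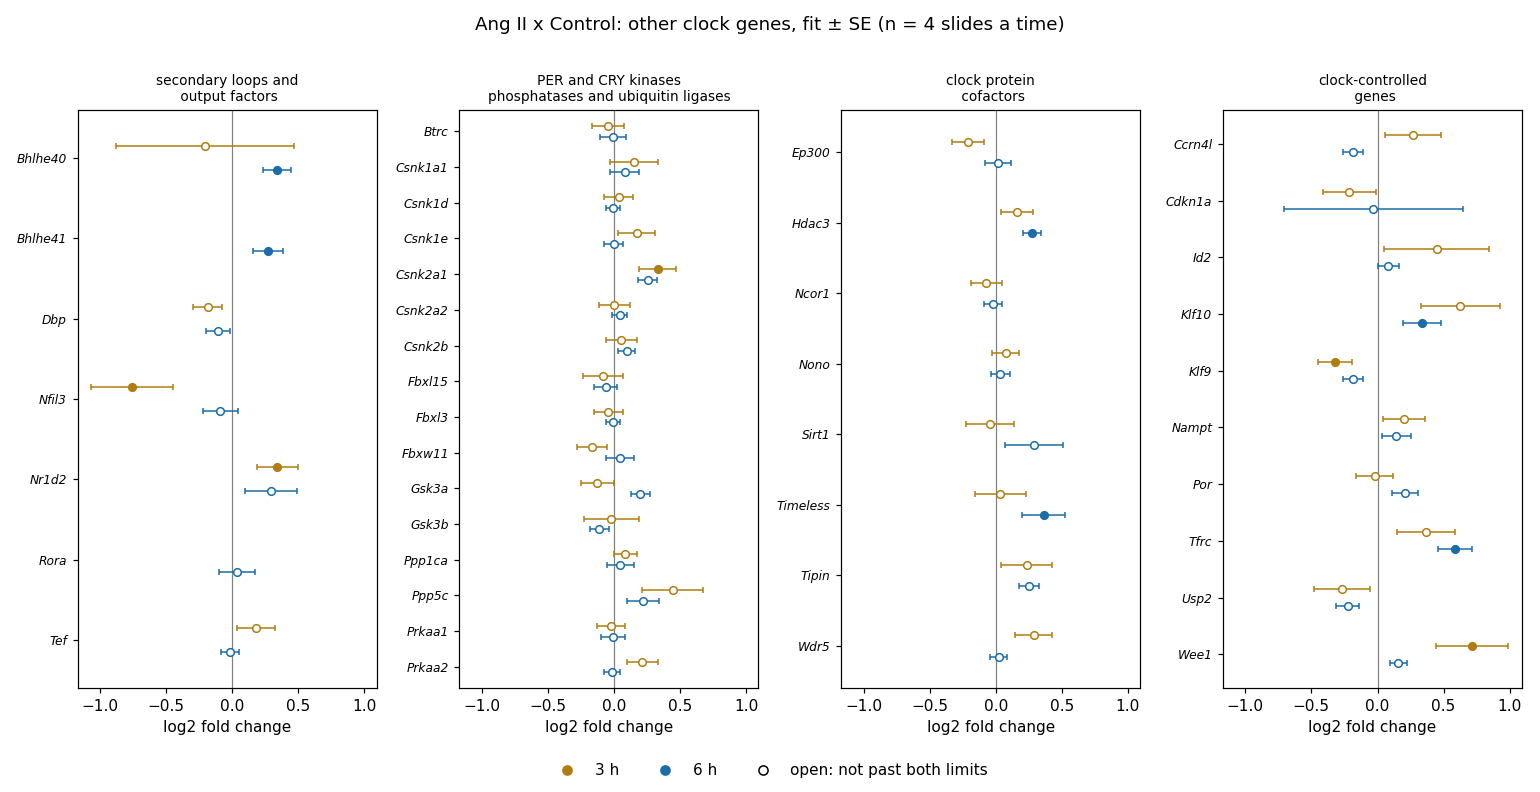
Log2 fold changes ± SE of the other clock genes at 3 h and 6 h in Ang II x Control, in 4 lists, with filled points past both limits and open points not past them. Points at 6 h past both limits all lie above 0, among them Tfrc, Bhlhe40 and Hdac3. Of all 16446 genes tested at 6 h, 1115 were past both limits and higher and 769 lower.

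The genes whose signal at 6 h was most like that of Arntl2 were Ndc80, Fam55c, Hmgcs1, Cpt1a and Cep135. Their Pearson correlations with Arntl2, each centred within slides over the 16 arrays of 6 h, were 0.95, 0.95, 0.95, 0.95 and 0.94, the highest of 9458 genes with a symbol. These arrays share slides and groups, and the correlations are a description. Within slides Arntl2 differed most on slide 2, with Control at 2.78 and the other groups at 4.10 to 4.74. That Control array was also the farthest from its slide at 6 h. How far the correlations rest on this slide was not tested. In Ang II x Control at 6 h the 5 genes were at 0.13, 0.35, 0.32, 0.51 and 0.57 on the log2 scale.

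**Figure D5:**
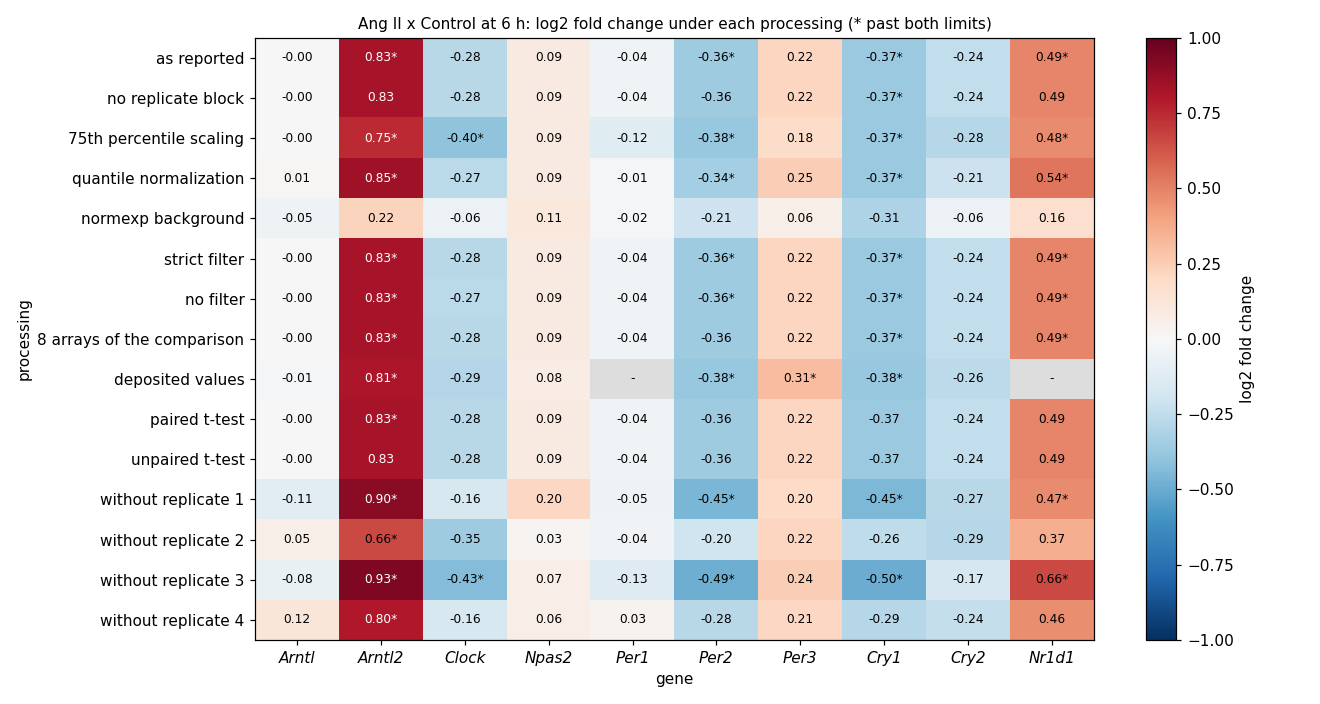
Log2 fold change of each clock gene (columns) at 6 h in Ang II x Control under the reported processing and each alternative (rows), with colour for the value, a star where it is past both limits and a dash where it was not measured. Arntl2 stays above 0.6 in all but the normexp background, where it is 0.22, and Cry1, Per2 and Nr1d1 lose their stars without replicate 2 or 4.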

How the data were processed

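The arrays were single-dye Agilent rat arrays, 32 in all. Per the file headers, the authors read them with Agilent Feature Extraction 9.5.3.1, and the intensity of each spot was background-subtracted but not scaled between arrays. As deposited, the log2 values of the series table equal the log2 of that intensity in 100% of 561803 values compared, and 38.2% of the table is blank. Probe positions are those of the headers, on rn4.

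The intensities were used here. Outlier spots were dropped, spots of 3 h not significantly above background were set to the error of their signal (the 6 h files already hold surrogates), and repeated spots of 1 probe were averaged. A probe could have at most 2 gaps among the 16 arrays of a time. After cyclic loess (3 iterations, span 0.7), probes were required to be well above background in the whole of at least 1 group, and the probes of a gene were reduced to their mean. There were 13630 genes for testing at 3 h and 16446 at 6 h. Each time was fitted with limma 3.58.1 in R 4.3.3, its 16 arrays together and the slide as a block, with Benjamini-Hochberg adjustment over all genes tested. The fit was tested on data simulated from the same model with independent residuals. Of changes of 0.5 on the log2 scale in Ang II x Control, 70% were recovered at 3 h and 84% at 6 h. Among unchanged genes, 3.99% and 2.43% were past both limits. The simulated data hold no array that deviates as a whole, so the test does not cover such arrays. Figures were drawn with matplotlib 3.10.9.

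Per the file headers, samples of the same number share a slide, and the series record names paired t-tests for the arrays, while the paper's array methods name t-tests without saying that they were paired. Deviations from the group means correlated by 0.15 to 0.92 between samples of the same number at 3 h and by 0.55 to 0.83 at 6 h. Precision is limited by the 4 arrays of a group. Replicates 1 and 2 of 3 h were scanned apart from 3 and 4, and replicates 1 to 3 of 6 h apart from 4.

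The alternatives were no block, scaling to the 75th percentile, quantile scaling, normexp (offset 50), no filter or one on all 16 arrays, the 8 arrays of a comparison, the deposited values, paired and unpaired t-tests, and each replicate left out. The members and lists were chosen with earlier results of these data known. Named are all members, of the other lists the genes past both limits in a comparison of the study plus Nr1d2, Dbp, Tef, Nfil3 and Bhlhe40, and the 5 genes most correlated with Arntl2. The qPCR of the study was not analysed here.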

Additional observations from a re-analysis of the deposited data

Results flagged for a closer look

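In 6 of 68 groups of 4 arrays, 1 replicate of a clock gene lay apart from the other replicates by most of the range of its group (Dixon's ratio of the gap to the range). Chance alone flags about 5% of independent groups, but these groups share slides, so nothing is read from the count. The ratio was taken on levels not centred within slides, so that a flag can mark a slide. Clock at 6 h was highest on replicate 4 in every group. It was at 5.13 in Control, 4.51 in Ang II, 4.69 in Ang II+Los and 4.56 in Ang II+PD123319. The ratio was 0.858 for Arntl in Control replicate 2 of 3 h, at 7.68 against 6.83 for the nearest. It was 0.832 for Per2 and 0.876 for Cry1 in Ang II+PD123319 replicate 3 of 3 h, at 6.02 against 5.21 and 9.42 against 8.69. At 6 h it was 0.947 for Clock in Control replicate 4, at 5.13 against 3.81, 0.855 for Per2 in Control replicate 1, at 5.91 against 6.41, and 0.860 for Cry1 in Ang II replicate 3, at 8.54 against 8.34.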

How the results depend on the processing

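No member past both limits turned to the opposite direction under any alternative, but the counts of members past both limits moved. Ang II x Control at 6 h, with 4 members, gave 1 without the replicate block, 0 with the normexp background, 1 with the paired and 0 with the unpaired t-test, and 1 to 5 without each replicate in turn. Ang II x Control at 3 h, with 0, gave 1 with the 75th percentile, the 8 arrays, no filter, the strict filter and the paired t-test, and 0 to 1 without a replicate. At 3 h the Losartan comparison, with 1, gave 0 with the 8 arrays, the deposited values, no replicate block, the normexp background and the unpaired t-test, 2 with the strict filter or none, and 0 to 1 without a replicate. The PD123319 comparison gave 1 at 3 h with no filter in place of 0, and at 6 h 0 in place of 1 with the deposited values, no replicate block, the normexp background, quantile normalization and both t-tests, and 0 to 1 without a replicate. At 3 h Ang II+Los x Control, with 3, gave 1 with the 8 arrays, the normexp background and the paired t-test, 0 without the block and with the unpaired t-test, and 1 to 3 without a replicate. At 6 h, with 3, it gave 1 with the normexp background and the unpaired t-test, 0 with the paired, and 1 to 4 without a replicate. At 3 h Ang II+PD123319 x Control, with 1, gave 2 with no filter and 0 with the normexp background and the unpaired t-test. At 6 h, with 4, it gave 2 with the 8 arrays and without the block, 1 with the normexp background and both t-tests, and 1 to 6 without a replicate. The deposited values gave no value for Nr1d1 in the Losartan comparison at 3 h or for Per1 in the PD123319 comparison at 6 h, where a blank on any array leaves a probe out. The members with an unadjusted p under 0.05 in the difference between the times, 2, became 1 with the deposited values and the normexp background, 0 without the block, and 0 to 3 without a replicate. With no filter they became 3 of 10, where Clock, near background at 3 h, was added. Of all genes, 977 of 13617 had such a p as reported, 160 of 13617 without the block and 1482 of 26582 with no filter. The number of all genes past both limits moved too, so nothing about the members is read from their moved counts. In Ang II x Control it ran from 209 to 1993 at 3 h and from 286 to 2514 at 6 h. In the Losartan comparison it ran from 96 to 1841 and from 18 to 482, and in the PD123319 comparison from 41 to 837 and from 84 to 1276. Against Control it ran from 235 to 3399 and from 261 to 2769 in Ang II+Los. In Ang II+PD123319 it ran from 119 to 1518 and from 376 to 3123. Members near background, as Arntl2, Clock and Per1 at 3 h, have no firm value at these signals.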
